A study of Rattus norvegicus with 8 samples.

Results

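The genes described here are 7 enzymes of the route from acetyl-CoA through mevalonate to squalene: Acat2, Mvk, Pmvk, Mvd, Idi1, Fdps and Fdft1. They were chosen by name, as every non-control probe whose gene name in the array files was one of these symbols. This gave 12 of the 45598 probes and 7 of the 36306 gene names or identifiers on the array, and 11 of the probes, with at least 1 for each of the 7 genes, were bright enough to test. Expression was measured in NR8383, a macrophage line started from lung lavage of a normal rat. The exposed cells were kept for 4 h in serum-free medium with 0.17 µg/mL of NM401, a multi-walled carbon nanotube, and the control cells for the same time in the same medium without it. Each condition had 4 arrays from biological replicates, per the labels, all of this 1 cell line.

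The mevalonate pathway builds isoprenoids from acetyl-CoA. Mevalonate is phosphorylated, decarboxylated and joined into farnesyl diphosphate. Squalene synthase then commits farnesyl diphosphate to sterols, while other enzymes use it for protein prenylation, dolichol and ubiquinone. In animal cells most of these genes are under SREBP-2, a membrane-bound transcription factor released when sterols are low, and macrophages also take up cholesterol from outside. Acat2 encodes the cytosolic thiolase that condenses acetyl-CoA, a step before mevalonate, so the label that joins the 7 genes is wider than its name.

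Signal is given as log2 of the background-subtracted spot intensity minus the 75th percentile of the same array, so 0 stands for a spot at that percentile. A difference is the NM401 mean minus the control mean on this log2 scale, given with its standard error (SE) from limma over all tested probes, and a gene was called at a Benjamini-Hochberg adjusted p below 0.05. A gene with several probes is represented by its brightest one. The 75th percentile itself was 2537 to 2878 intensity units on NM401 arrays and 958 to 1489 on control arrays, while the spike-in control RNAs averaged 12.13 to 12.45 log2 units on NM401 arrays and 13.19 to 13.71 on control arrays. Higher and lower are therefore relative to the bulk of the signal on the same array. All 4 control arrays and NM401 replicate 1 lay on slide 1, and NM401 replicates 2 to 4 on slide 2. A fit with slide as a block and a fit within slide 1 therefore rest on the same comparison, NM401 replicate 1 against the 4 controls, and give the same estimate. Their p-values assume that this lone array varies as the others do, and they are not separate checks. Row 1 of the slides held the controls and row 2 the NM401 arrays, and the row cannot be told apart from the group. Of 12 macrophage markers on the array, 10 were well above background on all 8 arrays, Marco was above background on none, and Adgre1 on 4 NM401 arrays and 1 control array. None of 9 lung epithelium markers was above background on all 8 arrays. The summed signal of the 6 neutrophil markers was 0.314 to 0.441 times the 75th percentile on NM401 arrays and 0.466 to 0.655 times on control arrays. Most of this sum came from Camp, whose groups overlapped. Camp had -1.811 to -1.296 log2 units on NM401 arrays and -1.301 to -0.826 on control arrays. Mpo, another of the 6, was above background on 0 NM401 and 4 control arrays. The part of these markers in the results was not tested.

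The 7 genes did not move as a block. Acat2, Mvd and Fdps were lower with NM401 and Fdft1 was higher, while Mvk, Pmvk and Idi1 were not called; under spike-in scaling or with no scaling all 7 were higher instead. The 3 genes called lower are 42.9% of the 7, against 35.4% of the 17424 genes tested, and the 1 called higher is 14.3%, against 21.9% of all genes. The 4 NM401 and 4 control values did not overlap for 4 of the 7 genes (57.1%), against 53.2% of all genes. In this fit the shares were near those of the array as a whole, so the counts are not a result about the pathway. With slide as a block, which rests on NM401 replicate 1 against the controls, 4 of the 7 were called lower (57.1%, against 20.2% of all genes). In that fit 0 were called higher, against 12.7% of all genes. The median log2 fold change of the 7 genes was -0.17, and that of all genes was -0.10. By log2 fold change, 11.9% of all genes lay below Mvd and 83.6% lay below Fdft1, and the other 5 of the 7 genes lay in between. In these bulk RNA samples, fewer cells with a transcript and less of it per cell cannot be told apart.

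**Figure D1:**
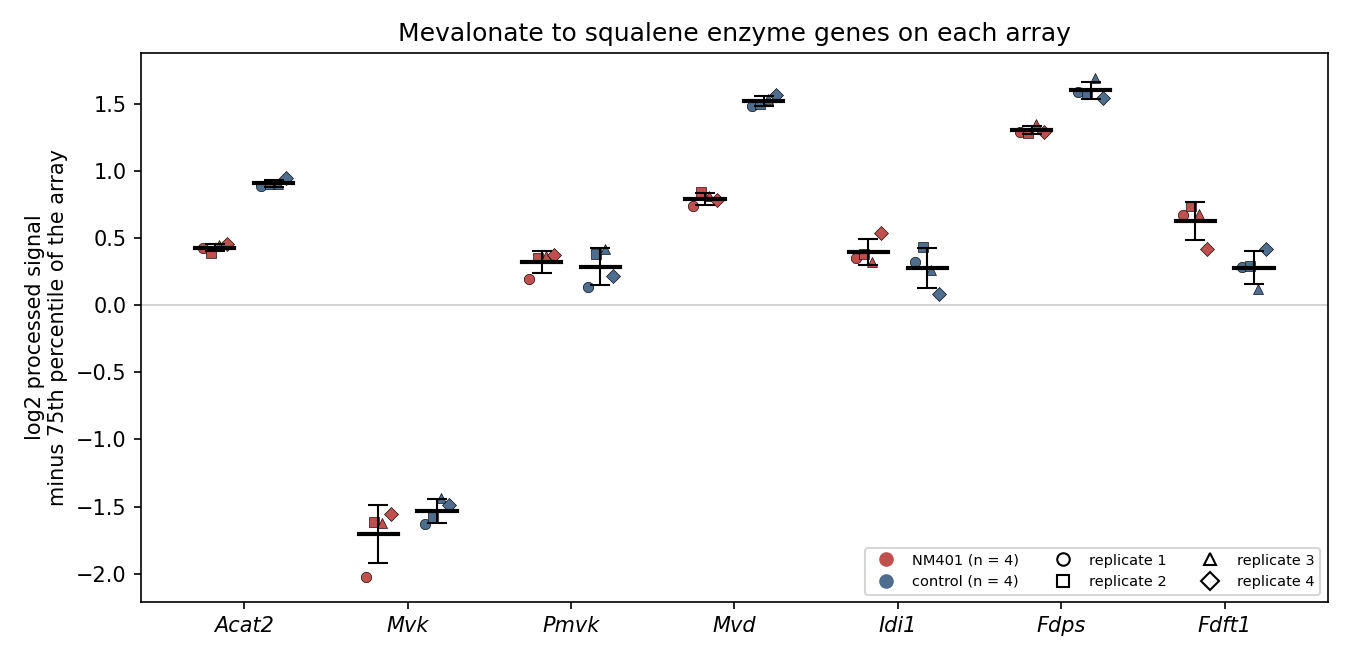
Signal of the brightest probe of each of the 7 genes, in pathway order, as log2 processed signal minus the 75th percentile of the array, with NM401 arrays (red, left) and control arrays (blue, right), a point per array shaped by replicate number, and the mean and SD of 4 arrays as bar and whiskers. Acat2, Mvd and Fdps separate with NM401 below control and Fdft1 with NM401 above (all 7 are higher with NM401 under spike-in scaling or no scaling), and levels of different genes come from different probes and cannot be compared.

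Sequences of 2 dimmer Acat2 probes are shown first because they share a stretch of bases although the files place them on different chromosomes. By gene name, Acat2 has 5 probes. The brightest, A_43_P16774, and A_44_P1142032 lie 3′ of A_44_P1117335 on rat chromosome 1, and A_44_P1359896 carries the same gene name but is placed by the files on chromosome 11. The last 28 bases of A_44_P1117335 and the first 28 of A_44_P1359896 are the same stretch with 26 matching bases and 2 differences, C41A and A51G, with the base of A_44_P1117335 first and positions counted from 1 at its 5′ end. The differing bases are in capitals.
A_44_P1117335 (rn4, chr1:41938660-41938719, plus strand): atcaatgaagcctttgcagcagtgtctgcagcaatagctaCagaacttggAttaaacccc
A_44_P1359896 (rn4, chr11:41205178-41205237, plus strand): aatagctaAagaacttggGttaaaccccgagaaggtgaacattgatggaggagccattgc
With 2 differences in 28 bases, transcripts of the chromosome 1 gene and any from the chromosome 11 site may not be told apart on these probes.

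Acat2 fell in the scaling used here. On its brightest probe, A_43_P16774 (rn4, chr1:41939864-41939923, plus strand), it had 0.42, 0.39, 0.45 and 0.45 log2 units on NM401 replicates 1 to 4, against 0.89, 0.91, 0.90 and 0.94 on control replicates 1 to 4. Every NM401 array lay below every control array, and this probe is printed as 10 spots, whose SD within an array was 0.03 to 0.09. The log2 fold change was -0.48 ± 0.05 (SE, n = 4 per group; limma adjusted p = 0.000123), which puts NM401 at 0.717 of control. From NM401 replicate 1 alone it was -0.49 (limma adjusted p = 0.00525 with slide as a block and 0.0449 within slide 1).

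The other 3 Acat2 probes that could be tested were also called lower in the scaling used here, and within slide 1 none of the 3 was called. A_44_P1142032 (rn4, chr1:41940015-41940074) had a log2 fold change of -0.45 ± 0.05 (SE, n = 4 per group; limma adjusted p = 0.000252), and of -0.39 within slide 1 (limma adjusted p = 0.0643). The chromosome 11 probe A_44_P1359896 differed by -0.48 ± 0.07 (limma adjusted p = 0.000768), and by -0.44 within slide 1 (limma adjusted p = 0.0734). The overlapping probe A_44_P1117335 differed by -0.30 ± 0.07 (limma adjusted p = 0.00938), with -3.49 to -3.41 log2 units on NM401 arrays and -3.30 to -2.99 on control arrays. Its call was lost with median scaling (-0.09, limma adjusted p = 0.333), with slide as a block (-0.33, limma adjusted p = 0.0718) and within slide 1 (limma adjusted p = 0.174). The change of A_43_P16774 minus that of A_44_P1117335 within arrays was -0.18 (exact permutation p = 0.0286, two-sided, the smallest that 4 against 4 arrays allow), which did not pass adjustment over the 7 pairs of probes of the same gene (adjusted p = 0.0667). The remaining probe, A_44_P271586, placed at chr1:41968461-41969016, was not tested: it was well above background on 0 NM401 arrays and 1 control array, with means of -7.75 and -6.63 log2 units in NM401 and control. It carries the gene name Acat2 but a different transcript record from the other Acat2 probes. That record was not matched in RefSeq, so whether this probe reads Acat2 is uncertain.

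Hmgcs1, the cytosolic HMG-CoA synthase, acts between Acat2 and the kinases. Its log2 signal ran between 0.90 and 1.32 on the 4 NM401 arrays, against 1.06 and 1.73 on the 4 control arrays. The groups overlapped, with control replicate 4 low, and the difference of -0.39 ± 0.15 (SE, n = 4 per group) was not called (limma adjusted p = 0.0623), nor with slide as a block (-0.58, limma adjusted p = 0.106).

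Mvk encodes mevalonate kinase, the first of the 2 kinases. Its only probe, A_44_P479359, has no position in the files. It had -2.02, -1.61, -1.62 and -1.55 log2 units on NM401 replicates 1 to 4, against -1.63, -1.58, -1.44 and -1.49 on control replicates 1 to 4. NM401 replicate 1 stood below all other arrays, and the other 3 NM401 arrays lay within the range of the controls. The log2 fold change of Mvk was -0.17 ± 0.11 (SE, n = 4 per group; limma adjusted p = 0.217), with a 95% interval of -0.42 to 0.08. Without NM401 replicate 1 it was -0.06 (limma adjusted p = 0.45). With slide as a block, where that array is the only NM401 array set against controls of its own slide, it was -0.49 (limma adjusted p = 0.0104). Within slide 1 the Mvk difference was also -0.49 and was not called. The size of the Mvk difference thus depended on 1 array.

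Pmvk, the kinase that adds the next phosphate, gave no call either. Probe A_44_P548420 (rn4, chr2:181664843-181664902, plus strand) had 0.20, 0.35, 0.37 and 0.38 log2 units on the NM401 arrays, against 0.13, 0.38, 0.42 and 0.22 on the control arrays. The NM401 values all lay within the range of the controls. The log2 fold change was 0.03 ± 0.08 (SE, n = 4 per group; limma adjusted p = 0.739) and its 95% interval ran from -0.15 to 0.22, so a change of the size seen for Mvd lies outside it in this scaling.

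Mvd, the decarboxylase that makes isopentenyl diphosphate, had the lowest log2 fold change of the 7 genes. On probe A_42_P794613 (rn4, chr19:52722404-52722463, minus strand; 2 spots) it had 0.74, 0.84, 0.81 and 0.79 log2 units on NM401 replicates 1 to 4, against 1.49, 1.50, 1.54 and 1.56 on control replicates 1 to 4. The groups were far apart compared with their own spread, which was 0.04 (SD, n = 4) in NM401 and 0.03 (SD, n = 4) in control. The log2 fold change was -0.73 ± 0.05 (SE, n = 4 per group; limma adjusted p = 4.54e-05), or 0.604 of control. From NM401 replicate 1 alone it was -0.78 (limma adjusted p = 0.0025 with slide as a block and 0.0347 within slide 1).

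Idi1, the isomerase that turns isopentenyl diphosphate into dimethylallyl diphosphate, was called on 1 of its 2 probes and not on the other. The brighter, A_64_P076638 (rn4, chr17:72557223-72557282, minus strand), had 0.35, 0.38, 0.32 and 0.54 log2 units in NM401, against 0.32, 0.44, 0.26 and 0.08 in control. The groups overlapped, and the log2 fold change of 0.12 ± 0.09 (SE, n = 4 per group) was not called (limma adjusted p = 0.258). The dimmer, A_44_P1083098 (rn4, chr17:72555633-72555692, minus strand), had -0.37, -0.51, -0.49 and -0.37 log2 units in NM401, against -0.73, -0.78, -0.84 and -1.40 in control. Here every NM401 array lay above every control array, with control replicate 4 low. This probe rose by 0.50 ± 0.14 (SE, n = 4 per group; limma adjusted p = 0.0178), though not with slide as a block (0.57, limma adjusted p = 0.11). The change of the dimmer minus that of the brighter was 0.38 (exact permutation p = 0.0286, two-sided), which did not pass adjustment over the 7 probe pairs (adjusted p = 0.0667). With the mean of both probes Idi1 was called higher, at 0.31 (limma adjusted p = 0.0396).

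Fdps makes geranyl and farnesyl diphosphate, the branch point for sterols and prenylation and the target of nitrogen-containing bisphosphonates. Its probe A_44_P432965 has 10 spots and is placed over 145 bases of the genome, chr2:181170192-181170336 on the minus strand of rn4, although the probe has 60. Its letters are shown because Fdps has no other probe:
A_44_P432965: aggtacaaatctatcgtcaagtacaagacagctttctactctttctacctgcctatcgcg
Fdps had 1.29, 1.29, 1.35 and 1.29 log2 units on NM401 replicates 1 to 4, against 1.59, 1.58, 1.69 and 1.54 on control replicates 1 to 4. The groups did not overlap. Fdps fell, with a log2 fold change of -0.30 ± 0.05 (SE, n = 4 per group; limma adjusted p = 0.00189), to 0.814 of control. It was -0.31 with slide as a block (limma adjusted p = 0.0303) and within slide 1 (limma adjusted p = 0.118). The call was lost with median scaling, where the difference was -0.09 (limma adjusted p = 0.366).

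Fdft1 encodes squalene synthase, which joins farnesyl diphosphate into squalene, and it was the only one of the 7 genes called higher in the scaling used here. On probe A_64_P073078 (rn4, chr15:42425389-42425448, minus strand) it had 0.67, 0.74, 0.68 and 0.42 log2 units on NM401 replicates 1 to 4, against 0.29, 0.29, 0.12 and 0.42 on control replicates 1 to 4. Replicate 4 of NM401 and replicate 4 of control had nearly the same value, so the groups only just failed to overlap. Fdft1 rose by 0.35 ± 0.09 (SE, n = 4 per group; limma adjusted p = 0.0122), to 1.27 times control. With slide as a block it was 0.39 and no longer called (limma adjusted p = 0.0884), and within slide 1 also 0.39 (limma adjusted p = 0.122).

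**Figure D2:**
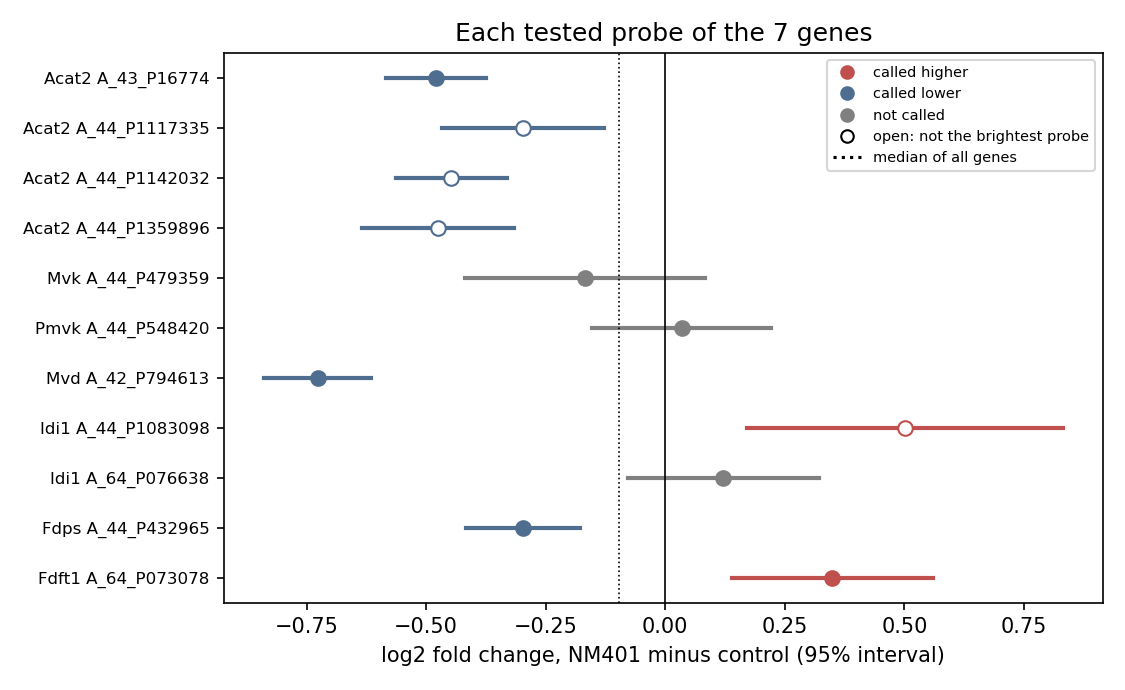
Log2 fold change, NM401 minus control, of the 11 tested probes of the 7 genes, with 95% intervals from limma (4 arrays per group), filled points for the brightest probe of a gene and a dotted line at the median of all genes, -0.10. The 4 Acat2 probes lie between -0.48 and -0.30, the 2 Idi1 probes lie at 0.50 and 0.12, and with spike-in scaling or no scaling all 11 probes move to the right of 0.

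Of the 11 tested probes, 6 were called lower (54.5%, against 34.1% of the 21660 tested probes) and 2 higher (18.2%, against 22.1%). Since 4 of the 6 are Acat2 probes, the probes are not independent of each other.

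Changes of 2 members were also set against each other within arrays, which removes the scaling between arrays. For each of the 21 pairs the difference of their log2 signals on an array was compared between groups. In 14 pairs (66.7%) the NM401 and control values did not overlap, against 52.3% of all 121961 pairs of a member with another tested gene. These 14 had an exact permutation p of 0.0286, two-sided, the smallest possible, and an adjusted p of 0.0429 over the 21 pairs. Every pair without overlap has this smallest p, so the adjusted p only restates the count of 14 in 21. The pairs are made from 7 genes and are not independent of each other. All 14 had the same sign within slide 1, which rests on NM401 replicate 1 alone. This had to be so, because in these pairs every NM401 value lay on the same side of every control value. The sign within slide 1 is therefore not a further check of these pairs.

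Mvd and Fdft1 parted most. Mvd minus Fdft1 was 0.17 ± 0.14 on NM401 arrays and 1.24 ± 0.12 on control arrays (SD, n = 4 each), so the difference changed by -1.08 log2 units (exact permutation p = 0.0286; 95% interval -1.30 to -0.85), and by -1.17 within slide 1. Mvd also fell relative to Idi1, by 0.85, and relative to its downstream neighbour Fdps, by 0.43. Acat2 fell by 0.83 relative to Fdft1 and by 0.18 relative to Fdps, and Fdps fell by 0.65 relative to Fdft1. The genes called lower thus differed in size: Acat2 minus Mvd changed by 0.25 (95% interval 0.17 to 0.32), with Mvd the lower.

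In 7 pairs the groups overlapped. The difference of Pmvk and Idi1 changed by -0.09, with a 95% interval of -0.32 to 0.15 (exact permutation p = 0.4). Pmvk minus Fdft1 changed by -0.32 (-0.68 to 0.05, exact permutation p = 0.114) and Idi1 minus Fdft1 by -0.23 (-0.63 to 0.17, exact permutation p = 0.2). These 3 intervals all hold a change of -0.30, the size seen for Fdps, so they do not show that the genes moved alike. The other 4 pairs all held Mvk, whose NM401 replicate 1 was low: Acat2 minus Mvk changed by -0.31 (-0.59 to -0.03, exact permutation p = 0.0857; 0.0052 within slide 1). Intervals use the pooled spread of the 8 arrays.

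**Figure D3:**
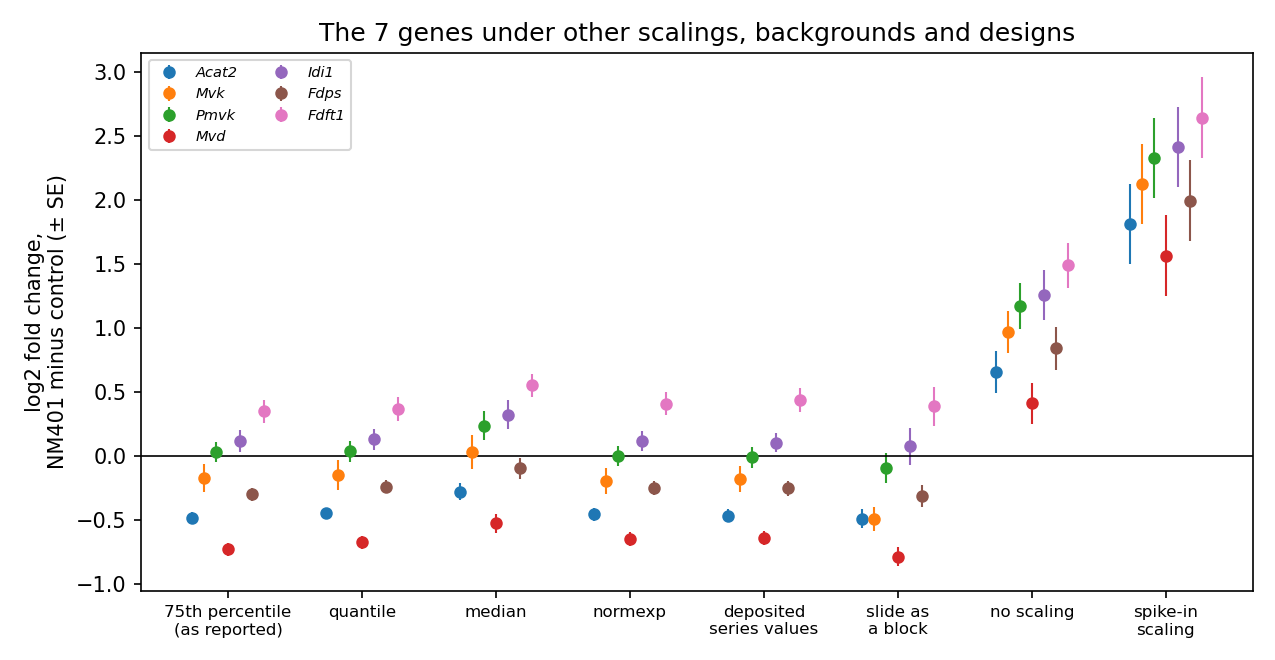
Log2 fold change, NM401 minus control (± SE), of the 7 genes as reported and under 7 other treatments of the same arrays. The order of the genes by fold change is nearly kept, while the zero line moves. With 75th percentile, quantile or normexp processing or the deposited series values, 3 genes are called lower. With slide as a block 4 are called lower, with median scaling 2, and all 7 lie above 0 with no scaling or spike-in scaling.

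The sign of these differences depended on the zero of the scale. Before scaling, the processed signal of every tested member probe was higher on NM401 arrays: Mvd had 4404 to 4914 intensity units with NM401 and 2832 to 4208 in control, and Fdft1 had 3420 to 4582 with NM401 and 1281 to 1823 in control. Relative to the median of all genes the fold changes were the same under any scaling by 1 number per array: -0.63 for Mvd, -0.38 for Acat2, -0.20 for Fdps, -0.07 for Mvk, 0.13 for Pmvk, 0.22 for Idi1 and 0.45 for Fdft1. The median of all genes lay at 0.11 with median scaling. With normexp background correction it lay at -0.24, and Fdps was -0.0089 relative to it while Mvd was -0.41 and Fdft1 0.65.

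In the steps after squalene, from Sqle to Dhcr7, 12 genes were tested. In the scaling used here 7 were called lower (58.3%, against 35.4% of all genes), 0 higher (against 21.9%) and 5 not called, and all 12 lay above 0 after spike-in scaling. They had a median log2 fold change of -0.29, against -0.10 for all genes. Tm7sf2, a sterol C14 reductase, fell by 1.07 ± 0.06 on the log2 scale (limma adjusted p = 2.68e-05). Dhcr7, the last enzyme of one route to cholesterol, fell by 0.78 ± 0.07 (limma adjusted p = 0.000106). Sqle, squalene epoxidase and the next enzyme after Fdft1, fell by 0.36 ± 0.04 (limma adjusted p = 0.000364), and Lss, lanosterol synthase, by 0.41 ± 0.06 (limma adjusted p = 0.000816). By brightest probe, Fdft1 was thus the 1 enzyme gene called higher among those shown from Acat2 to Dhcr7. With median scaling 3 of the 12 were called lower (25.0%, against 19.2% of all genes), and with slide as a block 5 (41.7%, against 20.2%).

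**Figure D4:**
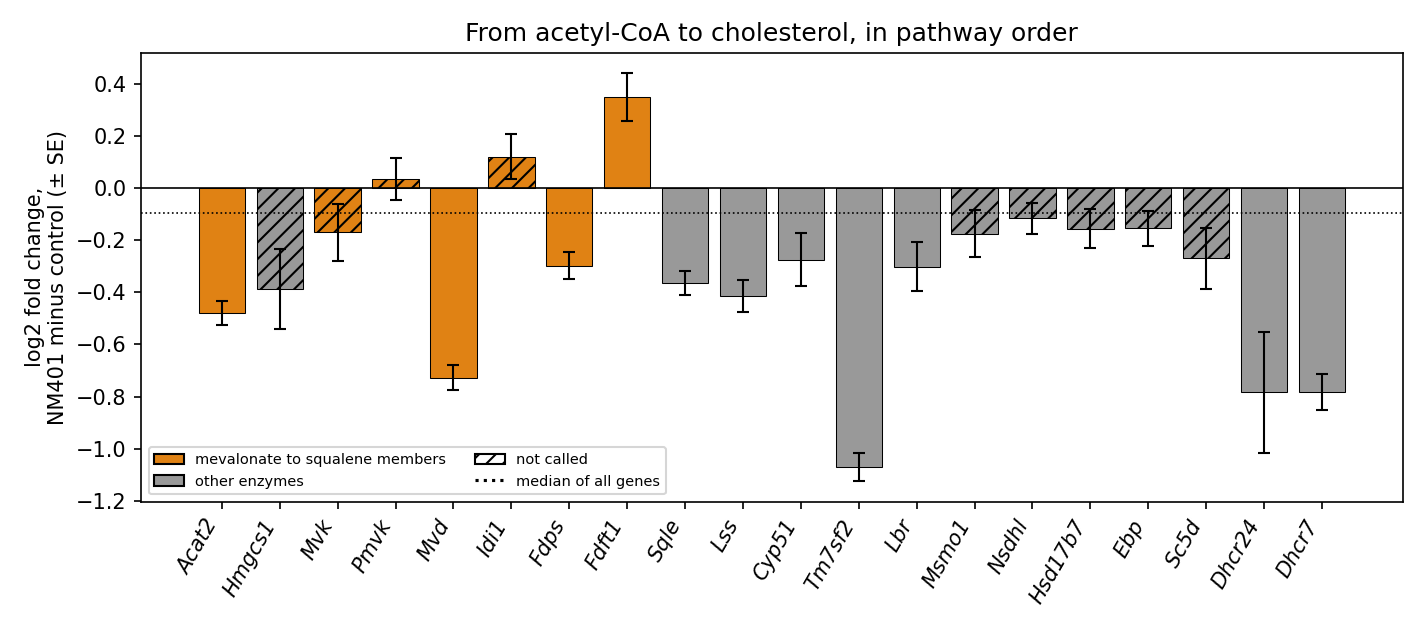
Log2 fold change, NM401 minus control (± SE, 4 arrays per group), of tested genes from acetyl-CoA to cholesterol in pathway order, the 7 described genes in orange, the other enzymes in grey, uncalled genes hatched and the median of all genes dotted. Fdft1 at 0.35 is the only called bar above 0 and Tm7sf2 at -1.07 the lowest, on a scale on which every bar lies above 0 after spike-in scaling.

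The genes that control sterol supply and those that feed acetyl-CoA into the pathway also held lower calls in the scaling used here. Of 9 tested genes of SREBP control and sterol uptake, 6 were lower and 1 higher (median -0.49). Srebf2, the gene of SREBP-2, differed by -0.97 ± 0.07 (limma adjusted p = 6.24e-05), Srebf1, its relative that acts more on fatty acid synthesis, by -0.57 ± 0.08 (limma adjusted p = 0.000683) and Mylip, a ubiquitin ligase gene, by -0.77 ± 0.11 (limma adjusted p = 0.000805). With slide as a block Mylip was -0.43 (limma adjusted p = 0.0142). Of 8 tested genes of acetyl-CoA supply and thiolases, 6 were lower and 0 higher (median -0.52). Acaa1a, a peroxisomal thiolase, had the lowest of these values at -0.89 ± 0.05 (limma adjusted p = 3.75e-05). Acly, which makes cytosolic acetyl-CoA from citrate, had -0.67 ± 0.06 (limma adjusted p = 8.72e-05), and Acss2, which makes it from acetate, had -0.61 ± 0.06 (limma adjusted p = 0.000118). Acat1, the mitochondrial counterpart of Acat2, had -0.59 ± 0.07 (limma adjusted p = 0.000242). These counts stand beside 35.4% of all genes called lower and 21.9% called higher. With slide as a block 4 of the 9 and 5 of the 8 were called lower, beside 20.2% of all genes.

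The genes that use isoprenoids for purposes other than sterols held calls in both directions in the same scaling. Of 18 tested genes, 3 were higher (16.7%, against 21.9% of all genes), 4 lower (22.2%, against 35.4%) and 11 not called, with a median of -0.03. The 2 chains of Rab geranylgeranyl transferase went opposite ways, with Rabggtb at 0.63 ± 0.07 (limma adjusted p = 0.000212) and Rabggta at -0.46 ± 0.05 (limma adjusted p = 0.000177). Fnta, the chain shared by the farnesyl and geranylgeranyl transferases, rose by 0.41 ± 0.06 (limma adjusted p = 0.000654), and Trit1, which puts an isopentenyl group on tRNA, by 0.65 ± 0.10 (limma adjusted p = 0.000965). With slide as a block Trit1 was 0.40 (limma adjusted p = 0.0339). With median scaling 7 of the 18 were higher (38.9%, against 35.1% of all genes) and 1 lower (5.56%, against 19.2%), and with slide as a block 3 were higher (16.7%, against 12.7%) and 1 lower (5.56%, against 20.2%).

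Promoters are shown because 3 genes were called lower together while Mvk, Pmvk and Idi1, between them in the pathway, were not. RefSeq sequence on rat build GRCr8 was given for 5 of the 7 genes: Acat2, Mvk, Mvd, Idi1 and Fdps. The Mvk promoter is not printed, and its box counts are given below. The 250 bases before the start are printed for 4 of them, with every CCAAT (the NF-Y box) and every GGGCGG (the Sp1 box), on either strand, in capitals; these motifs do not overlap each other there.
Acat2 (chr1:50100590-50100839, plus strand): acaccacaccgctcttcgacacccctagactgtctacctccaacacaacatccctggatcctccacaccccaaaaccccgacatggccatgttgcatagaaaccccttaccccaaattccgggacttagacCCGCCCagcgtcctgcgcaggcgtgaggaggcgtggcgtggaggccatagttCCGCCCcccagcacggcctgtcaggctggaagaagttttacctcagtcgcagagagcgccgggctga
Mvd (chr19:67414975-67415224, minus strand): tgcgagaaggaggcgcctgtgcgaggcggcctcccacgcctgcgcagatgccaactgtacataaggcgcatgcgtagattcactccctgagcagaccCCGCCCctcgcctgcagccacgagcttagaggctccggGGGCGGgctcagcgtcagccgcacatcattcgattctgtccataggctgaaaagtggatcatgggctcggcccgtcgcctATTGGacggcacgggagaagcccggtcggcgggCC
Fdps (chr2:176804817-176805066, minus strand): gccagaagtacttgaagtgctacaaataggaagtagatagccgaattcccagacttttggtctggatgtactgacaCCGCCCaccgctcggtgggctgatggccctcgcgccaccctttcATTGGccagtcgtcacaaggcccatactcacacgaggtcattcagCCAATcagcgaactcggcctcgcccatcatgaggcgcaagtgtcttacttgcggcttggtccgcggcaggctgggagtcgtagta
Idi1 (chr17:66547525-66547774, minus strand): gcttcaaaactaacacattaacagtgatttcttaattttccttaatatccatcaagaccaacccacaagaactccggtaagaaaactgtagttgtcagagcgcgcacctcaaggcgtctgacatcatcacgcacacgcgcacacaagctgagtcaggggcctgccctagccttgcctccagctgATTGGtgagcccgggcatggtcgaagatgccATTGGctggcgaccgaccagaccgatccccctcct
The final 2 capitals of Mvd begin a CCAAT that runs on past the start.

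In windows from 250 bases before to 50 after the start, Mvk held 5 NF-Y boxes, Mvd 2, Fdps 2, Idi1 2 and Acat2 0. NF-Y boxes were found in 37.5% of all 33469 promoters of this table. Sp1 boxes numbered 2 in Acat2, 2 in Mvk, 2 in Mvd, 1 in Fdps and 0 in Idi1, and 33.1% of all promoters held one. The sterol regulatory element in the form TCACNCCAC, searched on both strands, matched in 0 of these 5 windows and in 1.12% of all promoters. No other form of the element was searched, so the lack of a match does not show that these genes lack it. A match is a description of letters in the window and not a binding site, and neither box sorts the genes called lower from the others: Mvd and Fdps held both boxes, as did Mvk, which was not called.

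Genes whose signal over the 8 arrays ran close to Mvd were Clec4a1, Tnfrsf21, Alox5 and Hadha, with Pearson r of 0.997 to 0.999. Those closest to Fdft1 were Erg28, Brms1l, Slc25a22, Mppe1 and Dusp18, with r of 0.958 to 0.965. Over 8 arrays in 2 groups these values mostly carry the difference between the groups, and they are given as a description. Erg28, named for its yeast counterpart in sterol synthesis, differed by 0.29 ± 0.07 (limma adjusted p = 0.0101), and Clec4a1, a C-type lectin gene, by -0.55 ± 0.05 (limma adjusted p = 9.57e-05).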

How the data were processed

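Cy3-labelled cRNA was read on Agilent arrays in 1 colour. Spot intensity came from scans that the authors processed with Agilent Feature Extraction (version 11.0.1.1); the processed signal is background-subtracted, per the file headers. The table of the whole series, also deposited, held the spots' median intensity for 503808 of 503808 values and was used only as an alternative.

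Control spots and spots marked as outliers were left out, 0 spots were saturated, and spots of a probe were averaged as log2 values. From each array the 75th percentile of its 58717 non-control spots was subtracted. The test took the 21660 probes (17424 genes) that stood well above background on 4 or more of the 8 arrays, with limma 3.58.1 in R 4.3.3, two-sided, with no covariate and Benjamini-Hochberg adjustment over all tested probes. Version 1.17.8 of data.table read the files. Between 51.7% and 58.0% of spots were well above background, and the number of arrays limits the precision. The fit was tested on simulated data. Accessions were named through RefSeq (GRCr8), which matched 21109 of 45598 probes. Positions are those of the files, on rn4.

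The members and lists were chosen with earlier results of these data known. Named genes are all members with every probe, up to 4 genes per neighbouring list by smallest p (fewer where fewer were tested), and the 5 genes most correlated with the members of smallest p in each direction; some genes that this rule names are left out of the text. Replicate numbers did not pair the arrays: deviations of same-numbered arrays correlated at -0.07 to 0.19. Alternatives were normexp (offset 50), quantile and median scaling, other filters, slide, replicate block, series values, leaving out arrays, the mean of probes and, chosen after seeing the data, spike-in scaling and no scaling.

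Marker results not given elsewhere are these. Of 6 lymphocyte markers 1 (Cd3d) and of 8 fibroblast and endothelium markers 5 (Col1a2, Dcn, Pecam1, Cdh5 and Vwf) were above background on all 8 arrays. Their summed signals were 0.0688 to 0.124 and 3.10 to 3.21 times the 75th percentile on NM401 arrays, and 0.107 to 0.152 and 2.91 to 3.79 times on control arrays. The sums were 173 to 184 (NM401) and 180.1 to 189 (control) for macrophages, and 0.0302 to 0.0822 (NM401) and 0.0658 to 0.0877 (control) for lung epithelium. The sums hide single markers that moved, in the scaling used here: Dcn rose by 1.49, Col1a2 differed by -1.20, Cdh5 by -1.15 and Cd3d by -0.79 (limma adjusted p = 4.06e-05, 0.000174, 0.000299 and 0.00122). Of 11 tested macrophage markers 4 were higher and 3 lower, from -0.59 (Mrc1) to 1.49 (Adgre1), with Msr1 at 1.06. Adgre1 was above background on 4 NM401 arrays and 1 control array, and lay at -0.07 with normexp. Mrc1 was -0.33 with slide as a block. All 3 tested neutrophil markers were lower. Mpo passed the filter through 4 control arrays alone, and S100a8 through 1 NM401 and 3 control arrays. For S100a8 and Camp the groups overlapped. These marker counts stand beside 21.9% of all genes called higher and 35.4% called lower. The part of the markers in the results was not tested.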

Additional observations from a re-analysis of the deposited data

Results flagged for a closer look

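Among 24 groups of 4 arrays (12 member probes, 2 groups each), 4 had an array far from the other 3 by Dixon's criterion, where chance gives about 1 in 20. Mvk had -2.02 log2 units on NM401 replicate 1, while the other NM401 arrays had -1.62 to -1.55. Pmvk had 0.20 on the same array, against 0.35 to 0.38 on the others. This array is the only NM401 array on slide 1, and the part of the slide in these 2 values was not tested. The Pmvk value on it lay within the range of the controls, 0.13 to 0.42. Idi1 probe A_44_P1083098 had -1.40 on control replicate 4, while the other control arrays had -0.84 to -0.73. Fdps had 1.35 on NM401 replicate 3, against 1.29 on the other NM401 arrays, a gap that was small beside its difference between the groups.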

How the results depend on the processing

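Among 20 alternatives, Acat2 and Mvd kept their direction and call in 18 each, Fdps in 16 and Fdft1 in 18. Median scaling gave 2 members higher and 2 lower, with Mvk at 0.035, Idi1 at 0.33 (called) and Fdps at -0.093 (not called), and 6112 genes higher and 3354 lower in all. In the neighbouring lists it gave 7 higher and 1 lower in the non-sterol branch, 2 higher in SREBP control and 3 lower after squalene. Normexp gave 9386 genes lower, 0 higher in SREBP control and 7 lower in the non-sterol branch. With slide as a block, 0 members were higher and 4 lower. Mvk was -0.49 (called), Pmvk -0.092 and Fdft1 0.39 (not called), with 2217 genes higher and 3526 lower. Within slide 1, 0 members were higher, Pmvk was -0.092, Fdps -0.31 and Fdft1 0.39 (neither called), with 756 genes higher and 1365 lower among fewer arrays. The deposited series values put Pmvk at -0.0073, and the mean of probes put Idi1 at 0.31 (called).

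Spike-in scaling gave 7 members higher and 0 lower: Acat2 1.81, Mvk 2.12, Pmvk 2.33, Mvd 1.57, Idi1 2.41 and Fdps 2.00, with 17038 genes higher and 54 lower. No scaling gave 7 higher and 0 lower: 0.66, 0.97, 1.17, 0.41, 1.26 and 0.84 in the same order, with 15252 genes higher and 368 lower. Each shifts all genes by 1 number per array. Whether equal spike-in amounts were added was not tested.

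With the replicate block, 1 member was higher and 3 lower, with 3534 genes higher and 5839 lower; the block changed no member's call. Leaving out 1 array at a time gave -0.49 to -0.47 for Acat2, -0.22 to -0.06 for Mvk, -0.018 to 0.078 for Pmvk, -0.74 to -0.71 for Mvd, 0.06 to 0.18 for Idi1, -0.32 to -0.27 for Fdps and 0.30 to 0.42 for Fdft1. Pmvk was below 0 without control replicate 1 only. Member counts stayed at 1 higher and 3 lower, and genes at 3271 to 3703 higher and 5405 to 6136 lower. For other alternatives the cause of a change was not tested. The dimmest probe with the gene name Acat2 was not above background on 7 of 8 arrays, which limits what it can show.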
